A study of Boehmeria nivea with 12 samples.

Results

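The 200 unigenes described here were higher in stems of the ramie cultivar Zhongzhu No 2 (Z2) than in stems of Huazhu No 4 (H4), without and with water culture. The table lists 66881 unigenes under Trinity identifiers without gene names. Trinity is an assembler that builds transcripts from reads, without a genome, and groups them by sequence. Whether the reads of these 12 libraries, or others as well, went into the assembly is not known. The study compared the cultivars because they differ in adventitious rooting. Cut shoots stood in tap water for 10 days. Their submerged stem segments, which carried root primordia, gave the libraries H4T1 to H4T3 and Z2T1 to Z2T3. Untreated stems taken straight from the mother plants, without root primordia, gave H4CK1 to H4CK3 and Z2CK1 to Z2CK3. Effects of water, of cutting and of root primordia in the tissue cannot be told apart in this design. Per the study's methods each library pooled 5 plants and was named as a biological replicate. The values are FPKM, a fragment count scaled to transcript length and library size. Levels were compared on log2(FPKM + 1), where differences between low values come out smaller than they are.

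The members were chosen by their measured values in 10 libraries. The libraries labelled H4CK1 and Z2T1 took no part in the selection. A unigene had to be higher in the lowest of the 5 remaining Z2 libraries than in the highest of the 5 remaining H4 libraries. Its mean log2(FPKM + 1) had to change by less than 1 with water culture in each cultivar. The smaller of its differences between the cultivars, Z2CK minus H4CK and Z2T minus H4T, had to be at least 1. The 5 Z2 libraries lay above the 5 H4 libraries in 7.15% of the unigenes tested, and the whole rule was met by 742 unigenes, from which the 200 with the largest smaller difference were taken. The separation of the cultivars and the limited change with water culture are therefore descriptions of the choice and not findings. Unless H4CK1 or Z2T1 is named, values given for Z2 or H4 are those of the 5 libraries of each that entered the selection.

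Cultivars of ramie, a bast fibre plant, are kept by vegetative propagation, so that the plants of a cultivar share a genotype. A difference in transcript level that persists over treatments in such material is called constitutive, and it can accompany a difference in regulation, in gene content or in the sequence of the transcript. In a de novo assembly, copies of a gene that differ in sequence may be assembled as separate unigenes, and a read is then counted for the copy that it matches. In a Trinity identifier, the DN and c numbers together name a component, a set of contigs linked by shared sequence, and the g number names a unigene within it. As the table pairs the identifiers with no gene names, functions and stem markers of the members could not be looked up here.

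Column sums ran from 914642 to 1061225 FPKM. The values come without fragment counts, and the study's clean reads per library do not tell how many were counted for these unigenes. By those reads H4CK2 and H4CK3 were sequenced deeper than each Z2CK library. Rough depths were obtained from 13 to 52 unigenes per library that were above 0 in at most 4 libraries. They ran from 0.829 to 1.24 relative to H4T1, with 0.829 to 0.88 in the 3 Z2CK libraries. By the clean reads, however, Z2CK2 lies above H4T1, so these estimates do not stand for sequencing depth. The libraries labelled H4CK1 and Z2T1 stood apart from their groups in the members, as described further on, and all labels were kept as deposited.

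The members ranged from low to high abundance in Z2, and most were near 0 in H4. The rule needs a level in Z2 well above that in H4, so nothing is read from the contrast with all unigenes. Their mean FPKM over the 5 Z2 libraries ranged from 3.93 to 1303, with a median of 13.0 and quartiles of 8.38 and 30.0, against a median of 8.77 over the 27628 unigenes tested, those that reached an FPKM of 1 in 3 or more libraries. In Z2, 68 members had a mean FPKM below 10, 111 had one from 10 to below 100 and 21 had one of at least 100. In the 5 H4 libraries the median of the members' mean FPKM was 0.044 and the highest was 115, and 45 members had one of at least 1. By library, the median FPKM of the members was 14.2, 11.5 and 14.3 in Z2CK1, Z2CK2 and Z2CK3 and 12.5 and 12.9 in Z2T2 and Z2T3. In bulk stem samples a lower level in each cell and fewer cells that express a unigene cannot be told apart. The median was 0 in each of H4CK2, H4CK3, H4T1, H4T2 and H4T3. It was 12.6 in the library labelled H4CK1 and 0 in the library labelled Z2T1.

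**Figure D1:**
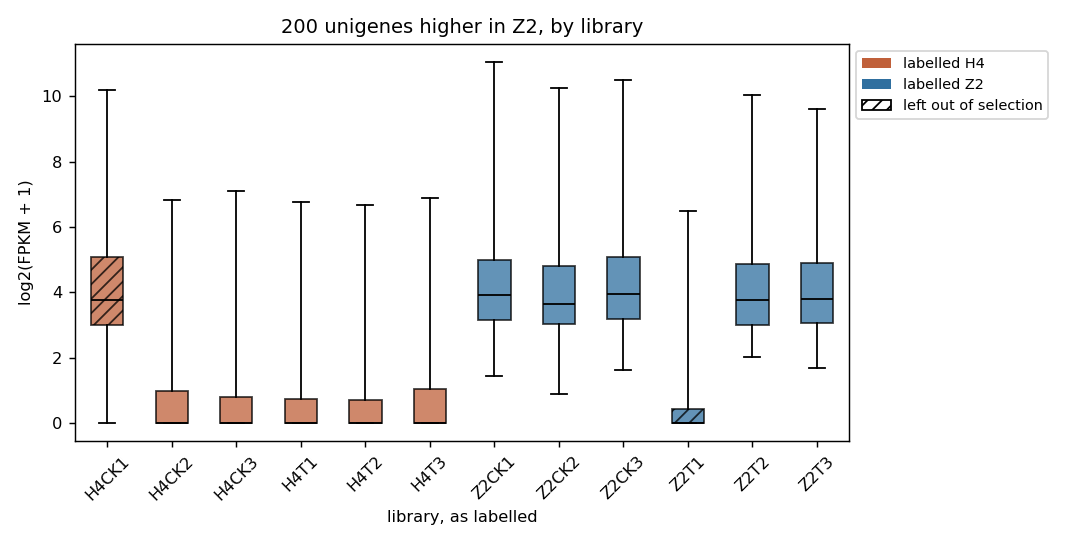
Level of the 200 unigenes as log2(FPKM + 1) in each of the 12 libraries, in the order of their labels. Boxes span the quartiles with the median as a line, whiskers reach the lowest and highest member, and hatched boxes are the libraries left out of the selection. The hatched library labelled H4CK1 has a median FPKM of 12.6, and the hatched library labelled Z2T1 has a median of 0.

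The largest differences belonged to 10 unigenes from 6 components, and 5 of these 10 came from DN42438. TRINITY_DN32495_c0_g2, first in rank, had an FPKM of 1710, 998 and 1146 in Z2CK1 to Z2CK3 and of 903 and 693 in Z2T2 and Z2T3. It was at 0.18 and 0.20 in H4CK2 and H4CK3 and at 0.23, 0 and 0 in H4T1 to H4T3. The 5 Z2 libraries thus lay between 693 and 1710, and no H4 library of the selection exceeded 0.23. TRINITY_DN42438_c2_g9, second in rank, had 2118, 1137 and 1403 in Z2CK and 940.4 and 779 in Z2T2 and Z2T3. It lay at 0.14 to 0.36 in the 5 H4 libraries.

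TRINITY_DN42438_c2_g3 and TRINITY_DN42438_c2_g8, from the same component, followed in rank. In Z2 the former ranged from 706 in Z2T3 to 1836 in Z2CK1, and the latter from 705 in Z2T3 to 1998 in Z2CK1. In the 5 H4 libraries of the selection both were listed at 0 except in H4T2, where they had an FPKM of 0.94 and 2.08. These unigenes and TRINITY_DN33651_c0_g3, at rank 14, had the 5 highest mean FPKM in Z2, between 1090.3 and 1303. All 5 had the same order of libraries in Z2, with Z2CK1 highest, then Z2CK3, Z2CK2, Z2T2 and Z2T3. They were thus highest and lowest in the same libraries.

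TRINITY_DN42438_c2_g1 was listed at 0 in the 5 H4 libraries, but it varied more in Z2 than its neighbours. Its FPKM was 255, 701 and 83.5 in Z2CK1, Z2CK2 and Z2CK3, and 491 and 302 in Z2T2 and Z2T3, an 8.40-fold range, and the highest and the lowest value were both from untreated stems. TRINITY_DN42438_c1_g4, from another component of the same DN number, was above 0 in H4, at 5.53 to 13.3, and lay at 591 to 1524 in Z2.

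TRINITY_DN42424_c3_g1 and TRINITY_DN42424_c3_g2 are the only unigenes listed in their component. The former reached 542, 480.3 and 442 in Z2CK1 to Z2CK3 and 403 and 416 in Z2T2 and Z2T3, and the latter had 266, 234 and 205 and then 192 and 186. Both were at 0.28 or less in the 5 H4 libraries. Both were highest in Z2CK1, and their levels varied by less than 1.5 times over the 5 Z2 libraries. TRINITY_DN41242_c2_g2 was listed at 0 in the 5 H4 libraries and lay at 168, 126 and 235 in Z2CK and at 153 and 132 in Z2T2 and Z2T3. TRINITY_DN35550_c1_g1, alone in its component, had 272, 332 and 271 in Z2CK and 334 and 388 in Z2T2 and Z2T3, against 3.03 and 2.29 in H4CK2 and H4CK3 and 1.20, 4.36 and 3.57 in H4T. It was 111 times as high in Z2 as in H4 by the means of the 5 libraries.

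**Figure D2:**
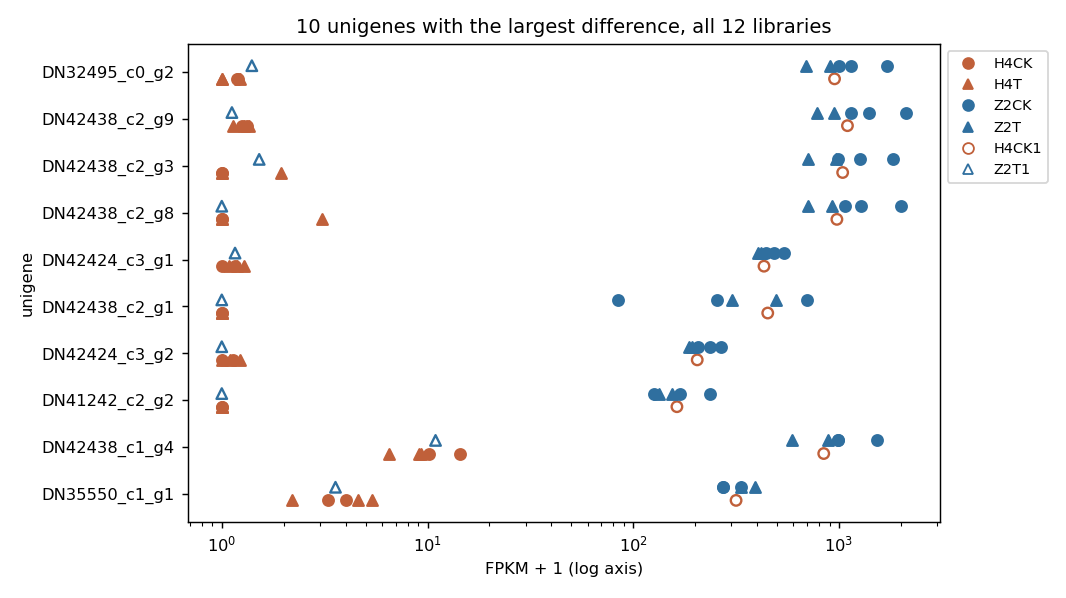
FPKM + 1 on a log axis for the 10 unigenes with the largest difference between the cultivars, one point per library. Circles are stems without and triangles stems with water culture, and open symbols are the libraries left out of the selection. In each of the 10 unigenes the open circle of H4CK1 lies among or near the Z2 points, and the open triangle of Z2T1 lies near the H4 points.

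The members differed in how low they were in H4. In the 5 H4 libraries, 80 of the 200 were listed at 0 throughout, 57 were above 0 in 1 to 4 libraries and 63 were above 0 in all 5. Listing at 0 in the 5 H4 libraries was seen in 2.93% of the 27628 unigenes and in 40% of the members, which the rule favours. As the counts behind the values are not given, a value of 0 may be below what a library could show. No fold is given for these 80. Their mean FPKM in Z2 had a median of 9.71 and reached 366 in TRINITY_DN42438_c2_g1. The 63 members above 0 in all 5 H4 libraries had a median FPKM of 32.6 in Z2. The rule asks for a higher level in Z2 where that in H4 is higher, so this contrast follows from the choice. They were 4.68 to 4689 times as high in Z2 as in H4 by the means of 5 libraries, with a median ratio of 14.3, and the highest ratio, of TRINITY_DN42438_c2_g9, rests on H4 values below 0.4.

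A small group of members was well expressed in H4 too, as 9 of the 200 had a mean FPKM of at least 10 there. TRINITY_DN42438_c1_g2 was the highest in H4, at 112 and 137 in H4CK2 and H4CK3 and 108, 102 and 118 in H4T, against 991, 624 and 604 in Z2CK and 633 and 481 in Z2T2 and Z2T3. Its lowest Z2 value was more than 3 times its highest H4 value. TRINITY_DN33157_c0_g1 had 35.0 and 37.6 in H4CK2 and H4CK3, 49.2, 49.9 and 49.4 in H4T1 to H4T3, 286, 248 and 237 in Z2CK and 231 and 283 in Z2T2 and Z2T3. TRINITY_DN42420_c1_g1 had the smallest ratio of the 63, at 4.68, with 30.6 to 53.8 in the 5 H4 libraries and 171 to 267 in the 5 Z2 libraries. TRINITY_DN40138_c1_g2 lay at 30.3 to 38.2 in H4 and at 186 to 275 in Z2, a ratio of 6.48. In these 4 unigenes the cultivars were set apart by a graded difference, with no library near 0. TRINITY_DN33651_c0_g3, next in its level in H4, lay lower there, at 13.0 to 26.2, and at 779 to 2044 in Z2.

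At the end of the list the differences were smaller. The last 3 members, TRINITY_DN36355_c6_g1, TRINITY_DN41531_c1_g3 and TRINITY_DN40063_c1_g2, had a smaller difference of 2.19, 2.18 and 2.18 on the log2(FPKM + 1) scale. The first 3 unigenes outside the list, TRINITY_DN42118_c2_g4, TRINITY_DN37157_c0_g1 and TRINITY_DN34118_c1_g1, had 2.18, 2.18 and 2.17. The limit of 200 thus falls within a continuous range of differences. TRINITY_DN36355_c6_g1 stood at 2.74, 3.95 and 4.14 in Z2CK1 to Z2CK3 and at 5.04 and 5.90 in Z2T2 and Z2T3 and was listed at 0 in the 5 H4 libraries. TRINITY_DN40063_c1_g2 had 45.2 to 94.2 in Z2 and 8.40 to 20.2 in H4, and TRINITY_DN41531_c1_g3 had 4.59 to 5.99 and 0.23 to 0.61.

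The difference between the cultivars was of like size without and with water culture, as the limits on the change with water culture require. The difference Z2CK minus H4CK had a median of 3.39 on the log2(FPKM + 1) scale and ranged from 2.18 to 10.5, and Z2T minus H4T had a median of 3.18 and ranged from 2.20 to 9.53. Over the 27628 unigenes the medians were 0.07 and 0.00. For 136 members the 2 differences were within 0.5 of each other, and for 6 they were 1 or more apart. The difference was larger without water culture in 124 members. That count has no share over all unigenes beside it, and nothing is read from it. The widest gap was 1.33, in TRINITY_DN42438_c2_g8, which had 10.5 without and 9.12 with water culture.

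**Figure D3:**
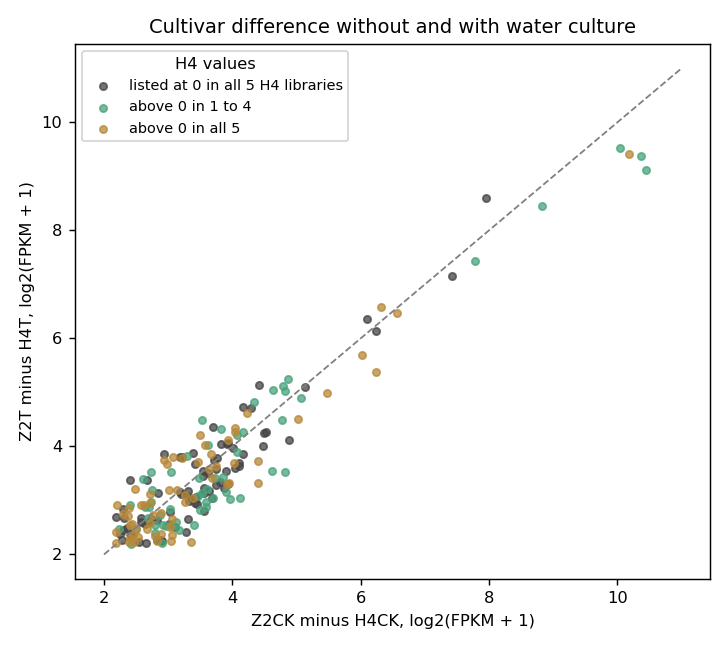
Difference between Z2 and H4 in mean log2(FPKM + 1) without water culture (horizontal) and with water culture (vertical) for the 200 unigenes, over the 10 libraries of the selection. Colours give the number of H4 libraries above 0 and the dashed line marks equal differences. The points lie along the line, with medians of 3.39 and 3.18.

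Within the limits of the rule, more members were lower than higher in Z2 with water culture. The mean log2(FPKM + 1) was lower in Z2T2 and Z2T3 than in Z2CK in 130 members and higher in 70, with a median change of -0.14, against 0.00 over the 27628 unigenes. In 56 members (28%) both Z2T libraries lay below all 3 Z2CK libraries, where 23.2% of all unigenes tested did. In 25 members (12.5%) both lay above, where 25.2% of all unigenes tested did. The shares over all unigenes include larger changes that the rule left out, so they are not like for like. The split of 130 and 70 has no such share beside it, and nothing is read from it. In H4 the median change was 0.00, and the 80 members listed at 0 there had no change. Z2CK1 was the highest of the 5 Z2 libraries in 80 members, Z2CK3 in 47, Z2T3 in 30, Z2CK2 in 23 and Z2T2 in 20. These counts have no share over all unigenes beside them either, and nothing is read from them.

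The largest positive changes with water culture, averaged over the cultivars, belonged to TRINITY_DN42403_c4_g6, TRINITY_DN32493_c0_g1 and TRINITY_DN32983_c0_g1. TRINITY_DN42403_c4_g6 had 8.24 in both H4CK2 and H4CK3 and 14.6, 15.1 and 18.8 in H4T, and 48.6, 41.6 and 62.9 in Z2CK against 80.9 and 77.6 in Z2T2 and Z2T3. In each cultivar the water-cultured libraries of the selection lay above the others, by a mean of 0.89 in H4 and 0.65 in Z2 on the log2(FPKM + 1) scale. TRINITY_DN32493_c0_g1 had 22.5, 15.7 and 14.4 in Z2CK and 37.4 and 32.6 in Z2T2 and Z2T3, with 0 to 2.89 in H4. TRINITY_DN32983_c0_g1 had 17.8, 21.9 and 26.4 in Z2CK and 30.3 and 49.3 in Z2T2 and Z2T3, at an FPKM of 0.13 to 1.58 in H4.

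The largest negative changes belonged to TRINITY_DN33129_c0_g2, TRINITY_DN40829_c2_g1 and TRINITY_DN39660_c2_g3. TRINITY_DN40829_c2_g1 had 35.5, 38.6 and 38.0 in Z2CK and 21.3 and 21.6 in Z2T2 and Z2T3, and 3.04 and 2.94 in H4CK2 and H4CK3 against 1.48, 1.29 and 2.10 in H4T. In neither cultivar did the ranges of treated and untreated stems overlap. TRINITY_DN33129_c0_g2 had 22.0, 24.9 and 22.8 in Z2CK and 13.2 and 11.3 in Z2T2 and Z2T3, and TRINITY_DN39660_c2_g3 had 33.8, 23.4 and 21.1 and then 15.7 and 14.3. The lowest and highest changes in Z2 over the 200 members were -0.96 and 0.98, bounded by the limit of 1.

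The members varied to different degrees among the Z2 libraries. The highest of the 5 Z2 values was less than 2 times the lowest in 100 members and more than 5 times the lowest in 9. The median SD over Z2CK1 to Z2CK3 was 0.32 on the log2(FPKM + 1) scale in the members and 0.25 over the 27628 unigenes. Differences between low values come out smaller on this scale, and the rule left out unigenes low in Z2. Nothing is therefore read from this contrast. The widest ranges, named after their values were seen, belonged to TRINITY_DN31637_c0_g1, TRINITY_DN29910_c0_g1 and TRINITY_DN42144_c2_g4. TRINITY_DN31637_c0_g1 stood at 2.05, 0.85 and 25.2 in Z2CK1 to Z2CK3, and TRINITY_DN29910_c0_g1 had 1.72, 11.1 and 43.0. TRINITY_DN42144_c2_g4 had 17.7, 27.1 and 246 in Z2CK, with 34.1 and 24.0 in Z2T2 and Z2T3. All 3 were highest in Z2CK3.

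The libraries labelled H4CK1 and Z2T1, which the selection did not use, went against their labels in nearly all members. In H4CK1, 197 of 200 members (98.5%) were higher than in all 5 other H4 libraries, where 25.5% of the 27628 unigenes were. Of the members, 181 (90.5%) were at or above the lowest of the 5 Z2 libraries in H4CK1, where 89.9% of all unigenes tested were. A further 16 (8.0%) lay between the cultivars and 3 (1.5%) were at or below the highest H4 library, against 0.822% and 74.5%. Over all unigenes these classes can overlap, so the shares are not like for like. The level in H4CK1 was within 0.5 of the mean of the 5 Z2 libraries in 171 members, with a median difference of 0.03 on the log2(FPKM + 1) scale. In Z2T1, all 200 members were below all 5 other Z2 libraries, where 30.0% of the 27628 unigenes were. Of these, 190 (95.0%) were at or below the highest of the 5 H4 libraries, where 88.0% of all unigenes tested were. The other 10 (5.0%) lay between the cultivars, against 0.42%. Nothing is read from the counts of 181 and 190, which are near the shares over all unigenes. With 1 library each these counts carry no test.

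The pattern held in unigenes that met the rule but fell outside the list. Of these 542, 96.7% were higher in H4CK1 than in all 5 other H4 libraries and 98.3% were lower in Z2T1 than in all 5 other Z2 libraries. Of the 80 members listed at 0 in the 5 H4 libraries, 77 were above 0 in H4CK1 and 78 were listed at 0 in Z2T1. TRINITY_DN32495_c0_g2, for example, had an FPKM of 950.4 in H4CK1 and 0.40 in Z2T1, and TRINITY_DN42424_c3_g1 had 431 and 0.16. The graded TRINITY_DN33157_c0_g1 had 253 in H4CK1 and 37.1 in Z2T1, and both values lay within the range of the other cultivar.

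The 3 members on the side of the label in H4CK1 were TRINITY_DN40238_c2_g1, TRINITY_DN34658_c2_g2 and TRINITY_DN38301_c0_g1. All 3 were listed at 0 in H4CK1, in Z2T1 and in the 5 other H4 libraries. TRINITY_DN40238_c2_g1 had 9.47, 8.92 and 14.1 in Z2CK and 6.24 and 15.4 in Z2T2 and Z2T3, and the other two ranged from 2.18 to 9.02 in Z2. No member was on the side of its label in Z2T1. As a result, 0 of the 200 members were higher in all 6 Z2 libraries than in all 6 H4 libraries.

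**Figure D4:**
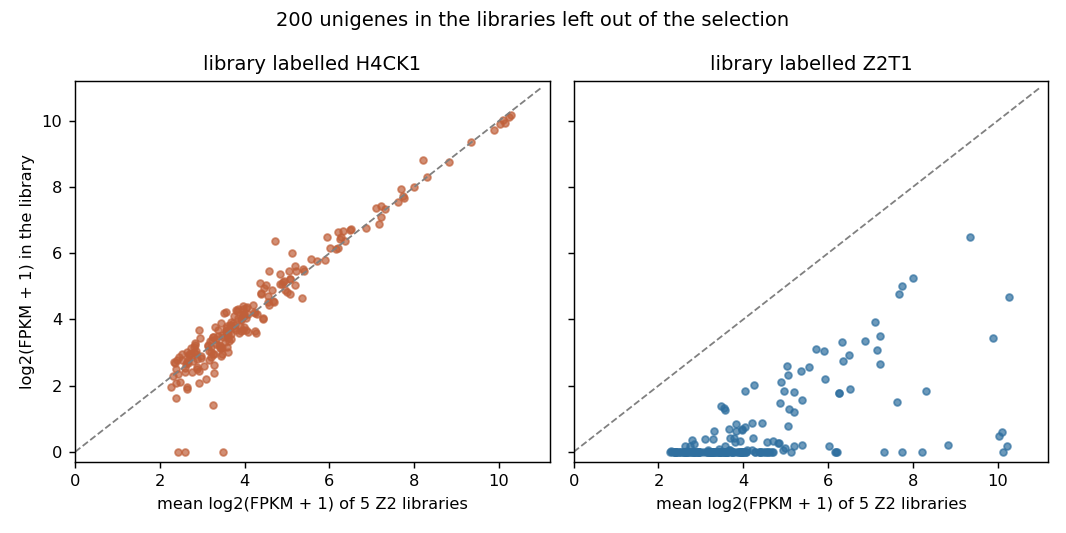
Level of the 200 unigenes in the library labelled H4CK1 (left) and in the library labelled Z2T1 (right), as log2(FPKM + 1), against their mean over the 5 Z2 libraries of the selection. The dashed line marks equal levels. In H4CK1 171 unigenes lie within 0.5 of the line, and in Z2T1 all 200 lie below it.

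H4CK vs. Z2CK and H4T vs. Z2T were fitted with limma over all 12 libraries and 27628 unigenes, and a unigene was called where its log2 fold change reached 2 in either direction at an adjusted p under 0.001. All 200 members passed the filter on low values, those listed at 0 in H4 only through libraries where they are high. Since the members were chosen on these contrasts, their calls are descriptions. In limma 0 members were called in either comparison, against 0.00724% of all unigenes in each. An adjusted p under 0.05 also gave 0 members, against 0.112% and 0.0398% of all unigenes with a call higher in Z2. At an unadjusted p under 0.05 there were 94 members in H4CK vs. Z2CK and 50 in H4T vs. Z2T, where 14.9% and 13.2% of all unigenes had one. The median log2 fold change of the members was 2.29 in H4CK vs. Z2CK and 2.11 in H4T vs. Z2T, against 0.03 and -0.03 over all unigenes. Its median standard error was 1.01 in the members and 0.35 over all unigenes.

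Without the libraries labelled H4CK1 and Z2T1 the same fit called 161 members in H4CK vs. Z2CK and 157 in H4T vs. Z2T, all higher in Z2. Calls higher in Z2 were 1.2% and 0.979% of the 26261 unigenes then tested, and calls in either direction 1.93% and 1.73%. With an adjusted p under 0.05 from limma, 199 members were called in each comparison, against 2.44% and 2.5% of all unigenes. The median log2 fold changes of the members were 3.39 and 3.18, with a median standard error of 0.25, close to the 0.26 over all unigenes. These are the libraries and differences by which the members were chosen, so the counts are no support for the list. TRINITY_DN32495_c0_g2 had a log2 fold change of 6.82 in H4CK vs. Z2CK with all libraries (standard error 2.79, adjusted p = 0.30 from limma), and of 10.04 without the 2 libraries.

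The interaction of cultivar and water culture was called in 0 members by limma, and in 0% of all unigenes, with all libraries and without H4CK1 and Z2T1. At an unadjusted p under 0.05 there were 0 members with all libraries and 13 without the 2 libraries, where 10.2% and 17.8% of all unigenes had one. The rule limits this contrast in the members. H4CK vs. H4T and Z2CK vs. Z2T also gave 0 calls among the members in both limma fits, against 0.00362% and 0.0109% of all unigenes with all libraries and 0.937% and 1.28% without the 2. An unadjusted p under 0.05 was seen in 2 members in each comparison with all libraries, where 13.5% and 18.4% of all unigenes had one, and in 15 and 34 members without the 2 libraries, where 36.2% and 34.4% had one. With all libraries the median change of the members with water culture was -1.11 in H4 and -1.27 in Z2. It was 0.00 and -0.14 without H4CK1 and Z2T1.

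Components, which the rule did not use, joined some members to each other. The 200 members came from 181 components, and 35 of them shared a component with another member, in 16 components. A further unigene of the same component was listed for 142 members (71.0%), against 63.2% of the 27628 unigenes. In 65 of these 142 (45.8%), at least 1 other unigene of the component was higher in all 5 Z2 libraries than in all 5 H4 libraries, where 12.4% of all unigenes with such a partner had one. In 31 (21.8%), at least 1 was higher in all 5 H4 libraries, where the share over all unigenes was 10.6%. The 35 members with another member as partner are among the 65, and their partners were chosen for this separation in the same libraries. Nothing is therefore read from the excess over 12.4%. Unigenes of a component share sequence, so these counts are not of independent genes. In DN42316_c0, for example, TRINITY_DN42316_c0_g1 lay at 141 to 164 in Z2 and 2.22 to 4.2 in H4, and TRINITY_DN42316_c0_g4 lay at 5.54 to 9.97 in Z2 and was listed at 0 in H4.

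In 9 members the partner was itself among the 200 unigenes that the rule gives with the cultivars exchanged. No share over all unigenes is given for this count, and nothing is read from its size. In DN35902_c1, the member TRINITY_DN35902_c1_g4 was listed at 0 in the 5 H4 libraries and had 75.6, 78.5 and 70.3 in Z2CK and 62.9 and 76.1 in Z2T2 and Z2T3. Its partner TRINITY_DN35902_c1_g2 was listed at 0 in the 5 Z2 libraries and had 5.67 and 9.47 in H4CK2 and H4CK3 and 10.6, 12.2 and 12.2 in H4T. A further member of this component, TRINITY_DN35902_c1_g1, lay at 3.90 to 7.90 in Z2, and TRINITY_DN35902_c1_g5, in neither list, lay at 13.3 to 22.7 in both cultivars. In these 10 libraries g4 was thus above 0 in Z2 alone and g2 in H4 alone, while H4CK1 had 69.8 for g4 and Z2T1 had 5.90 for g2.

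Other components held such pairs at lower levels. TRINITY_DN38666_c3_g3 had 18.0, 15.9 and 16.2 in Z2CK and at most 0.10 in H4, and TRINITY_DN38666_c3_g1 was listed at 0 in Z2 and had 3.27 to 8.10 in H4. TRINITY_DN37107_c1_g4 had 7.41 to 24.1 in Z2 and TRINITY_DN37107_c1_g2 had 1.83 to 5.67 in H4, each listed at 0 in the other cultivar. In DN41376_c3, the members TRINITY_DN41376_c3_g11 and TRINITY_DN41376_c3_g6, the latter named after its values were seen, had mean FPKM of 11.5 and 4.69 in Z2. In the same component TRINITY_DN41376_c3_g7 and TRINITY_DN41376_c3_g9 had 28.2 and 25.4 in H4 and were listed at 0 in Z2. TRINITY_DN41455_c2_g4 had a mean FPKM of 18.1 in Z2 and 0.52 in H4, and its partner TRINITY_DN41455_c2_g7 had 0.47 and 13.2. In H4CK1 and Z2T1 the partners also went with the other cultivar, as TRINITY_DN41376_c3_g7 was listed at 0 in H4CK1 and had 27.5 in Z2T1.

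**Figure D5:**
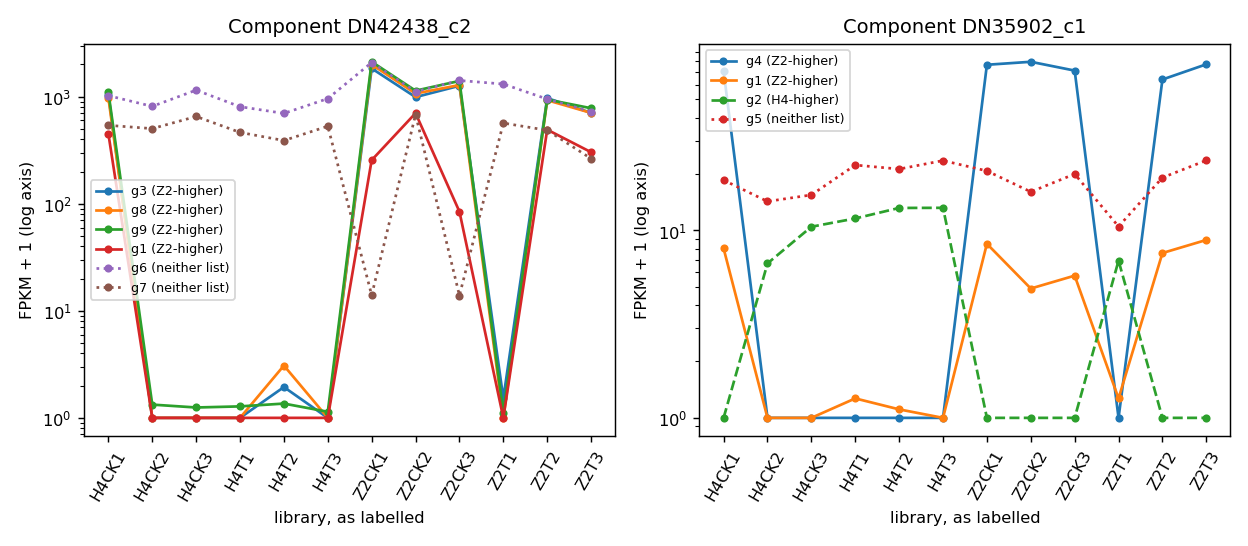
FPKM + 1 on a log axis for unigenes of the components DN42438_c2 (left) and DN35902_c1 (right) in the 12 libraries, in the order of their labels. Solid lines are members, the dashed line is a unigene of the list with the cultivars exchanged, dotted lines are in neither list, and lines join the libraries only to aid the eye. In DN35902_c1, g4 is listed at 0 where g2 is above 0, and the reverse.

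The FPKM values of each component were also summed, a measure that depends on the lengths of its unigenes. Over the 142 members with a partner, the difference between the cultivars in log2(FPKM + 1) of the means had a median of 3.31 for the member and 1.22 for its component. In 60 of the 142 the component was not higher in Z2 by 1 or more, and in 10 of these it was higher in H4. The 142 members lay in 123 components, of which 66 (53.7%) were higher in Z2 by 1 or more, where 7.36% of the 8877 such components of the unigenes tested were. Each sum holds the member itself, which was chosen as higher in Z2 in the same libraries and made up a median of 40.3% of its component in Z2, so nothing is read from this excess. DN42424_c3 summed to 673 in Z2 and 0.24 in H4, so that its difference did not shrink. DN41455_c2 summed to 34.7 in Z2 and 32.8 in H4, and DN41376_c3 to 35.4 and 77.1. DN42438_c2 summed to 5623 in Z2 and 1421 in H4, the latter mostly from TRINITY_DN42438_c2_g6, with 885 in H4 and 1258 in Z2, and TRINITY_DN42438_c2_g7, with 507 and 291. Whether the unigenes of a component are copies of a gene was not tested.

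With the cultivars exchanged, the same rule was met by 564 unigenes, and the 200 with the largest smaller difference reached down to 1.84, against 2.18 for the members. Their median differences were 2.90 without and 2.90 with water culture, and their median level in H4 was an FPKM of 10.4. Of these, 7 had a mean FPKM of at least 100 in H4 and 101 were listed at 0 in the 5 Z2 libraries, against 21 and 80 for the members in the matching libraries. The 2 lists were drawn from the same libraries, so no test was made of these counts. In H4CK1 all 200 of them were lower than in all 5 other H4 libraries, and in Z2T1 199 were higher than in all 5 other Z2 libraries. In H4CK1, 179 of them were at or below the highest of the 5 Z2 libraries. In Z2T1, only 140 were at or above the lowest of the 5 H4 libraries. The same counts over all unigenes tested are not given for this direction, so nothing is read from their size. In the members, H4CK1 lay above all 5 other H4 libraries in 98.5%, against 25.5% of all unigenes tested. Z2T1 lay below all 5 other Z2 libraries in 100% of the members, against 30.0%. What lies behind the levels in H4CK1 and Z2T1 was not tested.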

How the data were processed

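For 12 ramie stem libraries the authors deposited 1 table of FPKM per Trinity unigene, rounded to 2 decimals. The study's methods describe reads mapped to a ramie genome with HISAT2 and FPKM from RSEM on its genes. For the Trinity unigenes, assembly and counting are not given in the sources used here. Column names matched the sample titles, and the values were taken as deposited.

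Levels were taken as log2(FPKM + 1). Fits used limma 3.58.1 in R 4.3.3 with a variance trend, 4 groups in 1 fit of 12 libraries with 8 residual degrees of freedom, and Benjamini-Hochberg adjustment over the 27628 unigenes that reached an FPKM of 1 in 3 or more libraries. Adjusted p-values are limma's. They set a difference between groups against the spread of libraries within groups, which limma draws towards a trend over all unigenes. Python 3.11.15, numpy 2.4.6, pandas 2.3.3 and matplotlib 3.10.9 were used otherwise.

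The members and lists were chosen with earlier results of these data known. The unigenes named were those with the 10 largest differences, the 5 highest levels in each cultivar, the ranks next to the limit, the 3 largest changes with water culture in each direction, up to 5 groups of members that share a component and up to 5 members that share one with the exchanged list, by the largest difference, up to 3 members on the side of the label in H4CK1 or Z2T1, and members called with all 12 libraries, of which there were 0. Alternatives were a pseudocount of 0.1, other filters and scalings, an adjusted p of 0.05, a block and libraries left out.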

Additional observations from a re-analysis of the deposited data

How the results depend on the processing

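Over all unigenes limma called 2 unigenes between the cultivars without water culture (H4CK vs. Z2CK) and 2 with it (H4T vs. Z2T), and 1 with water culture in H4 (H4CK vs. H4T) and 3 in Z2 (Z2CK vs. Z2T). The interaction had 0, and further counts follow this order. A pseudocount of 0.1 gave 0, 0 and 0 in the first 3 comparisons, no filter 0 in all 4, and a filter at an FPKM of 0.1 gave 1 in H4T vs. Z2T and 2 in H4CK vs. H4T. Median-of-ratios scaling gave 4 in H4CK vs. Z2CK, and quantile normalization gave 6, 0 and 0 in the first 3. An adjusted p of 0.05 gave 64, 58, 65 and 133, and 15 for the interaction. Without H4CK1 and Z2T1 the counts were 508, 455, 246 and 335. With 1 library left out in turn they were 0 to 5, 0 to 1, 0 to 1 and 0 to 2, and 0 to 1 for the interaction, with the 5 reached without Z2T1 and the 1 for the interaction without Z2CK2. What causes these changes was not tested.

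With the replicate block the counts were 0, 0, 0 and 0, and 0 for the interaction. Same-numbered libraries did not deviate together (r of -0.183 to 0.131 across unigenes), so the numbers were not taken to pair the libraries.

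Among the members, 0 calls became 161 and 157 without H4CK1 and Z2T1 in the comparisons of the cultivars. They stayed at 0 under each other alternative, with 1 library left out in turn included. The rule was met by 742 unigenes, by 721 to 777 with 1 of the 10 libraries left out, by 424 after quantile normalization and by 1 with all 12 libraries in the rule, when 0 of the 200 members stayed. Between 181 and 192 members stayed in the top 200 with 1 library left out. The median differences of 3.39 and 3.18 were 5.94 and 5.75 with a pseudocount of 0.1 and 2.29 and 2.11 with all 12 libraries, and that of Z2T minus H4T was 2.76 after quantile normalization. They ranged from 3.36 to 3.43 and from 3.16 to 3.25 with 1 of the 10 libraries left out. The counts for H4CK1 and Z2T1 kept within 1.5 times of their values under each scaling tried.

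Of 560 alternative values for the 35 members that the naming rule gave (those named after their values were seen were not run), 558 were above 0. These members were chosen as higher in Z2 in the same libraries, so the sign is a description of the choice. TRINITY_DN40063_c1_g2, listed at 0 in Z2T1, had a log2 fold change of -0.70 in H4T vs. Z2T with a pseudocount of 0.1 and of -0.84 without Z2T3 to 2.42 without Z2T1, against 0.32 with all 12. Quantile normalization moved the median of all unigenes by more than 0.1 in H4T vs. Z2T, to -0.17, in Z2CK vs. Z2T, to -0.23, and in the interaction, from -0.11 to -0.32, which median-of-ratios scaling moved to 0.03.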

Other observations

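Unigenes of the components that held the most abundant members, named after their values were seen, separated the libraries within untreated Z2 stems. TRINITY_DN42438_c2_g7 had an FPKM of 13.0 and 12.9 in Z2CK1 and Z2CK3 but 680.4 in Z2CK2, against 485 and 263 in Z2T2 and Z2T3 and 389 to 652 in the 5 H4 libraries. TRINITY_DN42438_c1_g3 had 22.1 and 10.1 in Z2CK1 and Z2CK3 and 345 in Z2CK2, and 190.1 to 285 in H4. TRINITY_DN32495_c0_g5 had 70.2 and 88.4 in Z2CK1 and Z2CK3 and 957 in Z2CK2, and 427 to 742 in H4. In these 3 unigenes Z2CK2 lay above the 5 H4 libraries and the other untreated Z2 libraries lay below them. The member TRINITY_DN42438_c2_g1 was also highest in Z2CK2 among untreated Z2 stems, at 701 against 255 and 83.5 in Z2CK1 and Z2CK3, and was listed at 0 in the 5 H4 libraries other than H4CK1.

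Further unigenes of these components were seen in Z2CK1 alone or nearly so. TRINITY_DN42438_c2_g2 had an FPKM of 31.1, TRINITY_DN32495_c0_g1 of 25.7 and TRINITY_DN42438_c1_g1 of 12.5 in Z2CK1, and each was listed at 0 in the other 11 libraries. Z2CK1 was also the highest library for the 5 most abundant members.

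TRINITY_DN40063_c1_g2 was listed at 0 in Z2T1, below the 8.40 to 20.2 of the 5 H4 libraries, while it had 69.1 in H4CK1.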
